A study of Mus musculus with 8 samples.

Results

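Integrins and laminins are the receptors and the matrix proteins that hold a cell to its basement membrane, and 33 of their genes were followed across 8 mouse airway RNA libraries. They were taken by name from the 55401 genes of the count table: the protein-coding integrin alpha subunits with a numbered symbol (12 with Itgav), the 8 integrin beta subunits, the 11 laminin chains, and the nidogens Nid1 and Nid2. All 33 passed the filter on low counts and stood among the 16964 genes tested, with a lowest count of 20 in any library. The 4 libraries called mutant here carried Scgb1a1cre and 2 floxed alleles of Cdh1 (Cdh1F/F), the E-cadherin gene. The 4 libraries called control carried Scgb1a1cre and 1 floxed allele (Cdh1F/+). All 8 were taken on day 10 after tamoxifen, so the control libraries had also received Cre and tamoxifen. The series asked which genes differ after loss of Cdh1 from club cells, the secretory cells of the small airways in which the Scgb1a1 promoter is active.

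An integrin is a pair of an alpha and a beta chain that spans the membrane and ties matrix proteins to the cytoskeleton. Laminins are trimers of an alpha, a beta and a gamma chain that polymerise into the basement membrane, where nidogens link them to type IV collagen. In lung, epithelial cells, endothelium, smooth muscle, fibroblasts and leukocytes each carry their own selection of these chains, which is why the members were read as epithelial, leukocyte, mesenchymal and vascular, and broad or embryonic groups.

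Total counts per library ran from 15111663 to 21673654, and 3 counts, the limit that a count of 0 allows, corresponded to 0.136 to 0.207 CPM (counts divided by the TMM-scaled library size). The targeted gene itself did not differ by the test: Cdh1 was at 396 to 410 CPM in mutant libraries and at 322 to 428 CPM in control libraries (log2 fold change 0.07 ± 0.09 (SE)). Counts over the whole Cdh1 gene also include any transcript that lacks the floxed part, and other epithelial cells keep the gene, so this value does not check the deletion. The labels call all libraries airway cells, and the series text describes a preparation depleted of endothelial and immune cells, enriched by EPCAM and sorted by GFP, without any label that gives the sorted fraction of a library. Endothelial, alveolar type II and leukocyte genes were present in every library: Pecam1 stood at 760 to 887 CPM in mutant libraries and at 1005 to 1370 CPM in control libraries, and the 6 alveolar type II markers summed to 24250 to 30420 CPM in mutant libraries and 22090 to 31710 CPM in control libraries. In bulk RNA of this kind, fewer cells of a type and less RNA per cell cannot be told apart. Control libraries 2 and 3 stood apart from control libraries 1 and 4, with a chi-square per gene of 4.72 between 2 and 3, against 35.8 to 45.3 between either of them and 1 or 4 and 20.0 between 1 and 4. An adjusted p under 0.05, the threshold used below, was reached by 60.6% of the members and 40.7% of all genes fitted without control 1 and 4 together, and without control 2 and 3 together 6.06% of the members and 4.82% of all genes did. Values from both fits are given below for members whose call differs between them. These pairs follow the likeness seen in the same counts. Keeping only control 2 and 3, the closest pair, leaves little spread among the controls. Adjusted p from that fit are therefore no independent support for a difference.

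On the TPM scale (counts divided by gene length and scaled to a common total), Itgb1, the beta chain shared by most laminin and collagen receptors, was the most abundant member, at a mean of 726 ± 34.9 TPM in mutant libraries and 776 ± 58.1 TPM in control libraries (SD, n = 4 each). Its lowest library, 686.5 TPM, lay far above the highest library of the next member. That member was Itga3, a laminin receptor chain of lung epithelium, with 218 ± 18.7 TPM in mutant libraries and 172 ± 26.4 TPM in control libraries (SD, n = 4 each). Lamb2, Itgb5 and Lamc1 were among the next, and from Itga3 down to Lama4 every neighbour in the order overlapped the next in its range over libraries. Lama4, a laminin chain of vessel walls, ended this run at 27.2 to 34.0 TPM, above the whole range of Itgb3 at 20.0 to 24.2 TPM. The lowest members were Itga10, Itga11, Lama1 and Itgb8, and Itgb8 averaged 0.831 ± 0.230 TPM in mutant libraries and 0.558 ± 0.168 TPM in control libraries (SD, n = 4 each).

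Among the laminin alpha chains, those placed in the epithelial group were the most abundant per length. Bulk RNA does not give the cell type that these transcripts came from. Lama5, the most widespread laminin alpha chain of adult epithelium, and Lama3, the alpha chain of the epithelial anchoring laminin, had the highest alpha levels, at 100 ± 6.91 and 76.9 ± 7.87 TPM in mutant libraries and at 67.1 ± 23.1 and 70.4 ± 9.41 TPM in control libraries (SD, n = 4 each). Lama2, the alpha chain of muscle and nerve sheaths, averaged 14.9 ± 1.61 TPM in mutant libraries and 15.3 ± 2.07 TPM in control libraries. The ranges of Lama5 and Lama3 overlapped, and both lay above that of Lama2 in every library.

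**Figure D1:**
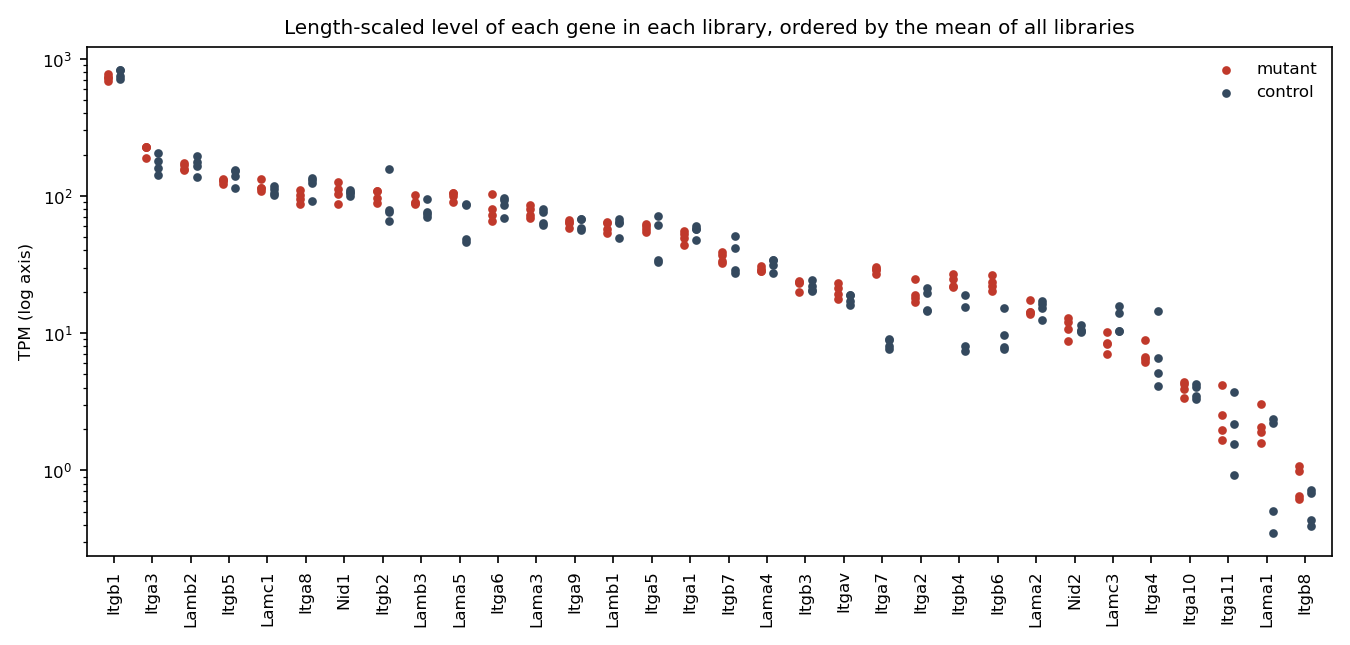
TPM of the genes reported here in each library on a log axis, ordered by the mean of all libraries, with mutant libraries left of control libraries for each gene. Itgb1 stands alone at the top, most neighbours overlap, and Itga7 shows a gap between 26.8 to 30.5 TPM in mutant libraries and 7.70 to 8.99 TPM in control libraries.

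Among the 33 genes, 2 rose in mutant libraries (Itga7 and Itgb6), 1 fell (Lamc3) and 30 did not pass the threshold, an adjusted p of 0.05 (edgeR, quasi-likelihood fit, with Benjamini-Hochberg correction over all genes tested). That is 9.09% of the members, against 7.81% of all genes tested. By direction it is 6.06% of members higher against 5.45% of all genes, and 3.03% lower against 2.36%. The members as a family were therefore called about as often as any gene. Their median log2 fold change was -0.05, against -0.00605 over all genes tested. At an unadjusted p under 0.05 there were 10 members, or 30.3%, against 25.2% of all genes tested.

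By group, the epithelial subunits lay mostly above 0 and the mesenchymal and vascular subunits mostly below it in the fit of all libraries. Of 10 epithelial members 1 rose and none fell, 9 had a log2 fold change above 0, and the median was 0.29. Without control 2 and 3 together, Itga2 (-0.15) and Itga6 (-0.13) were below 0. Lama3, Lamb3, Itga3 and Lama5 were then at 0.03, 0.07, 0.10 and 0.12, and Itgb4, Itgb6 and Itgb8 at 0.38, 0.91 and 0.91. Of 16 mesenchymal and vascular members 1 rose and 1 fell, 13 had a value below 0, and the median was -0.10. Without control 2 and 3 together, Itga9 (0.06), Itga10 (0.03) and Lamc1 (0.02) of this group moved above 0, and Itga5 (-0.26) and Itga11 (-0.29) moved below it. All 3 leukocyte members were below 0 with a median of -0.18 and no call. Without control 1 and 4 together all 3 were above 0 (Itga4 0.46, Itgb2 0.35 and Itgb7 0.18), and Itga4 and Itgb2 were called higher. The 4 broad or embryonic members split evenly around 0 with a median of -0.07 and no call. Over all genes tested, 49.1% had a value above 0. These counts describe the groups, and no test was made of the difference between them.

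**Figure D2:**
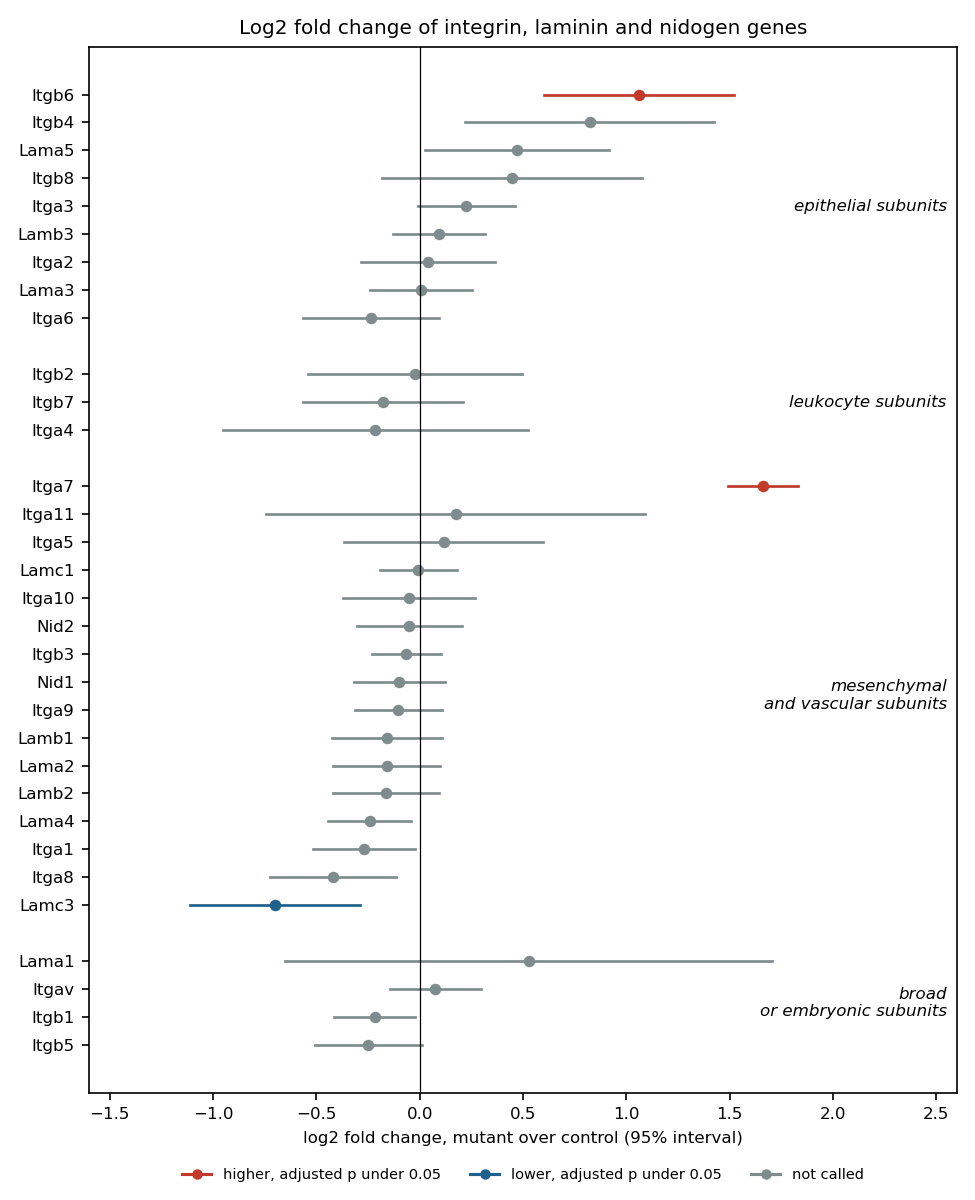
Log2 fold change of the genes reported here, mutant over control, with its 95% interval, grouped by cell type class and ordered within each class. Itga7 lies at 1.66 and Itgb6 at 1.06, Lamc3 lies at -0.70, and the intervals of most other genes include 0.

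The clearest difference was in Itga7, the alpha chain of a laminin receptor best known from skeletal, cardiac and smooth muscle. Itga7 (ENSMUSG00000025348, GRCm38 chromosome 10, 128933818 to 128958282, plus strand) was at 75.6, 73.6, 69.9 and 67.7 CPM in mutant libraries 1 to 4, against 21.0, 24.2, 21.6 and 24.0 CPM in control libraries 1 to 4. The groups were far apart and each was tight. The fold was 3.16 (95% interval 2.81 to 3.55), a log2 fold change of 1.66 ± 0.08 (SE), and edgeR gave it an adjusted p of 3.305e-06. Itga7 passed the threshold in 18 of 18 alternative fits, with log2 fold changes from 1.55 to 1.72. Per length, Itga7 averaged 28.9 ± 1.53 TPM in mutant libraries and 8.415 ± 0.624 TPM in control libraries (SD, n = 4 each).

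Neighbouring genes were read because the counting did not use strand. Mettl7b, which overlaps Itga7 on the other strand and whose part in the Itga7 counts was not tested, had at most 5 counts of its own in any library. Striated muscle genes were read beside Itga7 from a list chosen after values were seen: 7 of 10 fell in mutant libraries and none rose, and their summed level was 512 to 728 CPM in mutant libraries and 922 to 1449 CPM in control libraries. Of 6 smooth muscle and pericyte markers, only Cnn1, calponin of contractile smooth muscle, passed the threshold. Cnn1 fell (log2 fold change -0.82 ± 0.20, edgeR adjusted p = 0.0406). Its call was lost when control 2, 3 or 4 or mutant 2, 3 or 4 was left out, and without control 2 and 3 together. With all libraries kept, it was also lost without the filter on low counts and with replicate number as a block. The list summed to 517 to 686 CPM in mutant libraries and 525 to 834 CPM in control libraries. Of 6 Schwann cell genes, also listed after values were seen, S100b rose (log2 fold change 1.58 ± 0.19, edgeR adjusted p = 0.00124), the other 3 tested did not pass, and Sox10 and Cdh19 were under the filter, at most at 0.529 and 0.941 CPM. The part of any of these cells in the Itga7 result was not tested.

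Itgb6, the beta chain that joins Itgav into an epithelial receptor for fibronectin and for latent TGF-beta, was the epithelial member that rose. Itgb6 (ENSMUSG00000026971, GRCm38 chromosome 2, 60598292 to 60722643, minus strand) was at 48.0, 58.4, 49.7 and 44.9 CPM in mutant libraries 1 to 4, against 18.1, 18.5, 23.9 and 35.7 CPM in control libraries 1 to 4. All mutant libraries lay above all control libraries, and control 4 came nearest. The fold was 2.09 (95% interval 1.52 to 2.87), with a log2 fold change of 1.06 ± 0.20 (SE) and an edgeR adjusted p of 0.0139. Itgb6 passed in 16 of 18 alternative fits. It was lost without the filter on low counts (adjusted p = 0.0518) and without control 2 and 3 together (log2 fold change 0.91, adjusted p = 0.107), while without control 1 and 4 together the log2 fold change was 1.24.

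Its partner and relatives did not pass the threshold in the fit of all libraries. Itgav, which also pairs with Itgb1, Itgb3, Itgb5 and Itgb8, was at 59.2 to 74.6 CPM in mutant libraries and at 56.5 to 70.3 CPM in control libraries (log2 fold change 0.08, 95% interval -0.15 to 0.30). Itgb5, another partner of Itgav found on many cell types, had a log2 fold change of -0.25 (95% interval -0.51 to 0.01). It was called lower in 2 of 18 alternative fits, without control 1 (-0.35, adjusted p = 0.022) and without control 1 and 4 together (-0.42, adjusted p = 0.000552), and was at -0.06 without control 2 and 3 together (adjusted p = 0.813). Itgb8, which binds latent TGF-beta as Itgb6 does, stood at 2.13 to 3.63 CPM in mutant libraries and 1.44 to 2.76 CPM in control libraries, a low level at which its interval ran from -0.18 to 1.08 on the log2 scale.

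**Figure D3:**
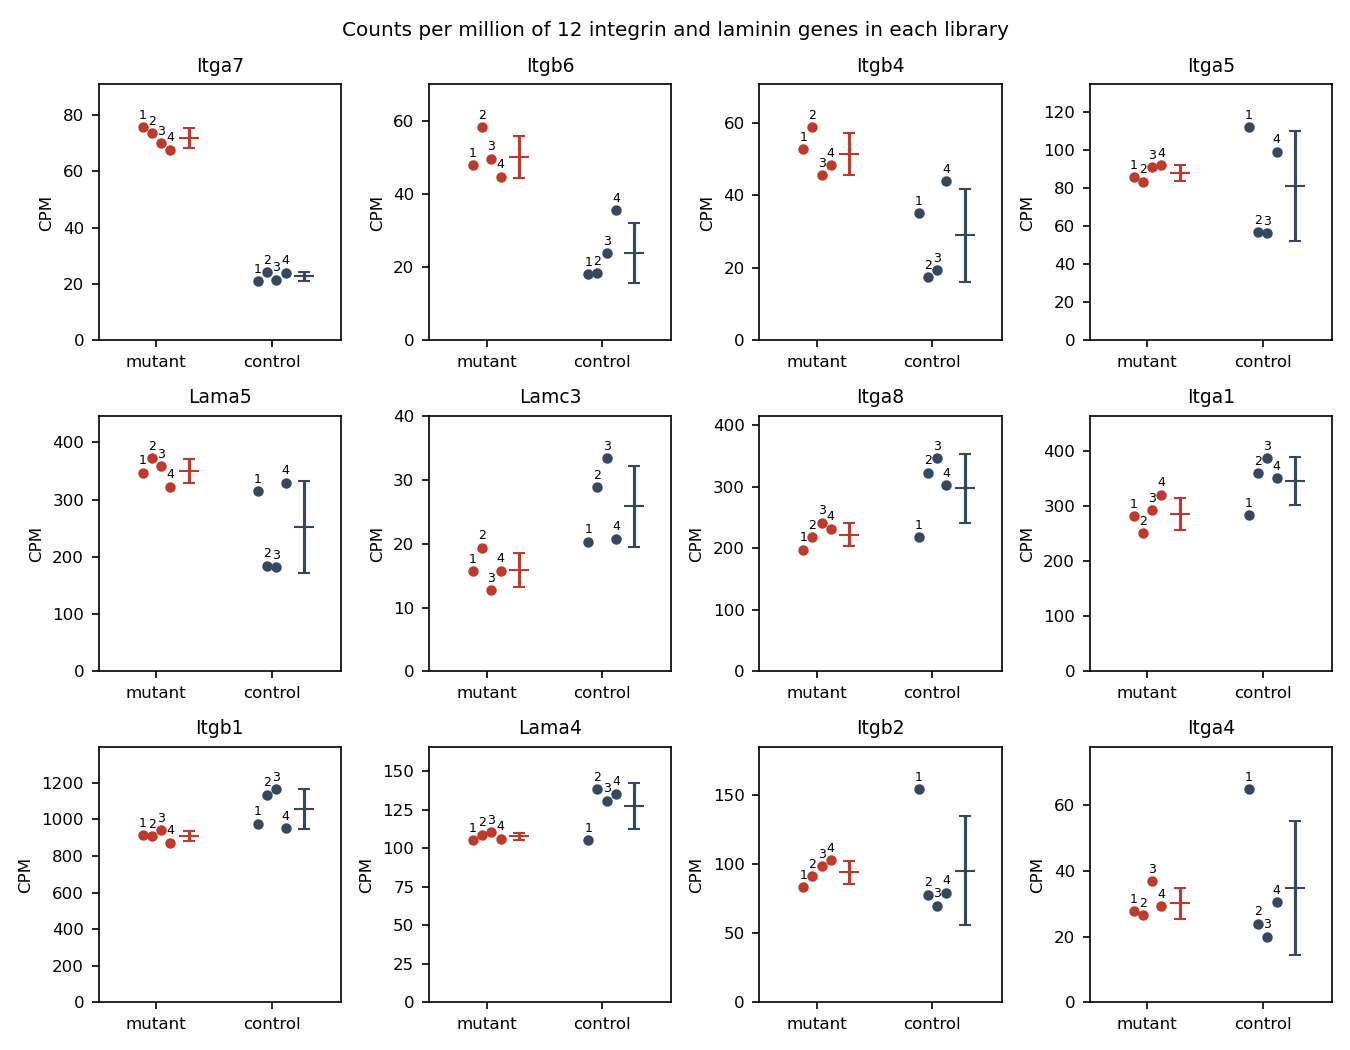
CPM of 12 integrin and laminin genes in each library, numbered 1 to 4, mutant left of control; the crossbar is the mean and its whiskers 1 SD (n = 4). The groups do not overlap in Itga7, Itgb6, Itgb4, Lamc3 and Itgb1. Control libraries 2 and 3 sit low in Itgb4, Itga5 and Lama5 and high in Itgb1, and control 2, 3 and 4 sit high in Itga8. Control 1 sits high in Itgb2 and Itga4.

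Itgb4, which belongs to the anchoring contacts of epithelium, also had all mutant libraries above all control libraries, but did not pass the threshold. Itgb4, the hemidesmosome chain that pairs only with Itga6, was at 52.8, 58.8, 45.6 and 48.2 CPM in mutant libraries 1 to 4, against 35.1, 17.4, 19.4 and 43.9 CPM in control libraries 1 to 4. The control libraries spread widely, with 2 and 3 low and 1 and 4 near the mutant values. Its log2 fold change came to 0.82 ± 0.27 (SE), and edgeR gave an adjusted p of 0.0957. Without control 2 and 3 together it was 0.38 (adjusted p = 0.13), and without control 1 and 4 together it was 1.48 (adjusted p = 9.446e-06).

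In all, 6 of 33 members did not overlap between groups, 4 with the mutant libraries above (Itga7, Itgb4 and Itgb6 among them) and 2 with them below (Lamc3 and Itgb1). This is 18.2% of the members, against 16.8% of all genes tested, of which 9.75% had the mutant libraries above and 7.07% had them below.

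Other chains of the epithelial anchoring contacts gave smaller values. Lama3 and Lamb3, both laminin chains of those contacts, had log2 fold changes of 0.01 (95% interval -0.24 to 0.25) and 0.09 (95% interval -0.13 to 0.32). The span of Lamb3 overlaps the abundant genes Hsd11b1 and G0s2 on the other strand, and read pairs that touched several genes had been dropped in counting. Itga6, the partner of Itgb4, lay at 186 to 280 CPM in mutant libraries and 208 to 297 CPM in control libraries, with a log2 fold change of -0.24 (95% interval -0.56 to 0.09). It was the 1 epithelial member below 0 in the fit of all libraries. Itga6 also pairs with Itgb1 and is carried by endothelium as well.

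Lama5 showed the control split too. It was at 347, 373, 359 and 322.5 CPM in mutant libraries 1 to 4, against 315, 185, 182 and 330 CPM in control libraries 1 to 4. Mutant libraries lay near control libraries 1 and 4 and well above 2 and 3. The log2 fold change was 0.47 ± 0.20 (SE, edgeR adjusted p = 0.178), 0.12 without control 2 and 3 together (adjusted p = 0.46), and 0.93 without control 1 and 4 together (adjusted p = 9.139e-06). Itga3, the laminin receptor chain that binds Lama5 and Lama3 laminins, had 338 to 400.0 CPM in mutant libraries and 282 to 384 CPM in control libraries, with a log2 fold change of 0.23 ± 0.11 (SE, edgeR adjusted p = 0.216). Itga3 was at 0.36 without control 1 and 4 together (adjusted p = 0.00522) and at 0.10 without control 2 and 3 together (adjusted p = 0.654). Itga2, a collagen receptor chain, had a log2 fold change of 0.04 (95% interval -0.28 to 0.36).

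RNA of epithelial markers differed between the groups as well, in both directions. All 6 pan-epithelial markers rose, and their sum was 1264 to 1574 CPM in mutant libraries and 553.5 to 808 CPM in control libraries. Epcam had 96.0 to 111 CPM in mutant libraries and 57.8 to 73.7 CPM in control libraries (log2 fold change 0.61 ± 0.09, edgeR adjusted p = 0.00299). It encodes the epithelial adhesion protein that the series text names for enrichment, and no label says whether that step was applied to these libraries. Club cell markers went the other way, with 4 of 6 lower, among them Scgb1a1 (log2 fold change -1.68 ± 0.09), and a sum of 8508 to 10730 CPM in mutant libraries and 25100 to 27540 CPM in control libraries. Of 6 ciliated cell markers 3 rose (Foxj1, Ccdc39 and Rsph1) and Sec14l3 fell, with a sum of 1648 to 2078 CPM in mutant libraries and 2039 to 2507 CPM in control libraries. Basal cells, the main carriers of Itgb4 and Itga6 in large airways, were scarcely represented: none of 5 tested markers passed, the 6 listed summed to 5.77 to 15.5 CPM in mutant libraries and 6.41 to 15.3 CPM in control libraries, and Trp63, their defining factor, reached at most 1.90 CPM. Of the alveolar lists, Rtkn2 alone of 6 type I markers fell, with a sum of 4477 to 4535 CPM in mutant libraries and 4320 to 5267 CPM in control libraries, and none of 6 type II markers passed. The part of these shifts in the epithelial subunits was not tested.

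Of the 16 mesenchymal and vascular members, Lamc3, a laminin gamma chain, was the one that fell. Lamc3 (ENSMUSG00000026840, GRCm38 chromosome 2, 31887291 to 31946539, plus strand) was at 15.7, 19.4, 12.7 and 15.8 CPM in mutant libraries 1 to 4, against 20.3, 28.9, 33.4 and 20.8 CPM in control libraries 1 to 4. The highest mutant library came just under the lowest control library, and control 2 and 3 were the high ones. In log2 units the change came to -0.70 ± 0.18 (SE), and the edgeR adjusted p of 0.0486 was close to the threshold. Only 7 of 18 alternative fits called it. It was lost when control 2 (adjusted p = 0.117), control 3 (0.106), mutant 1 (0.133), mutant 2 (0.0574), mutant 3 (0.12) or mutant 4 (0.113) was left out, and without control 2 and 3 together the log2 fold change was -0.37 (adjusted p = 0.212), against -0.98 without control 1 and 4 together (adjusted p = 0.00052).

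Itga8, which with Itgb1 forms the nephronectin receptor of lung mesenchyme, did not pass, although it was low in the same direction. It was at 198, 218, 241.5 and 232 CPM in mutant libraries 1 to 4, against 218, 323, 346 and 303 CPM in control libraries 1 to 4. Control 1 lay within the mutant range and the other control libraries above it. The log2 fold change was -0.42 ± 0.14 (SE, edgeR adjusted p = 0.0925), and 4 of 18 alternative fits called it: DESeq2 (adjusted p = 0.0329), the fit with replicate number as a block (0.0489), and the fits without control 1 (0.00551) and without control 1 and 4 together (0.000245). Without control 2 and 3 together the log2 fold change was -0.23 (adjusted p = 0.416). Its ligand Npnt, nephronectin, had a log2 fold change of -0.23 ± 0.12 without passing.

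Itga1 and Lama4, carried by smooth muscle and vessel walls, did not pass either. Itga1, a collagen receptor chain, stood at 251 to 321 CPM in mutant libraries and at 284 to 388 CPM in control libraries (log2 fold change -0.27 ± 0.11, edgeR adjusted p = 0.163). Lama4 stood at 105 to 110.5 CPM in mutant libraries and at 105 to 138 CPM in control libraries (log2 fold change -0.24 ± 0.09, edgeR adjusted p = 0.126). In both, control 1 was the library within the mutant range, and both were called lower in 2 of 18 alternative fits. Without control 1 the log2 fold change was -0.35 for Itga1 (adjusted p = 0.0354) and -0.32 for Lama4 (adjusted p = 0.00973). Without control 1 and 4 together it was -0.39 for Itga1 (adjusted p = 0.00595) and -0.32 for Lama4 (adjusted p = 0.000976), and without control 2 and 3 together -0.15 (adjusted p = 0.557) and -0.16 (adjusted p = 0.416).

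Itgb1, which pairs with Itga1, Itga8 and most other alpha chains here, was at 912, 908, 940.0 and 873 CPM in mutant libraries 1 to 4, against 977, 1134, 1165 and 953 CPM in control libraries 1 to 4. Every mutant library lay below every control library. The difference was -0.22 ± 0.09 (SE) on the log2 scale and did not pass (edgeR adjusted p = 0.159). It was -0.34 and passed without control 1 and 4 together (adjusted p = 0.00205), and -0.09 without control 2 and 3 together (adjusted p = 0.604).

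The matrix chains of the stroma did not pass in the fit of all libraries. Lamc1, the common gamma chain, had a log2 fold change of -0.01 (95% interval -0.19 to 0.18), and Lamb1 and Lamb2, the common beta chains, had -0.16 (95% interval -0.42 to 0.11) and -0.16 (95% interval -0.42 to 0.09). Lama2 had -0.16 (95% interval -0.42 to 0.10). Nid1 and Nid2, the linkers to collagen, had -0.10 (95% interval -0.32 to 0.12) and -0.05 (95% interval -0.30 to 0.20). The span of Nid2, at 261 to 394 counts per library, overlaps Rtraf on the other strand, at 1088 to 1695 counts. The part of Rtraf in the Nid2 value was not tested. Without control 1 and 4 together, Lamb1 (-0.29, adjusted p = 0.0108), Lamb2 (-0.22, adjusted p = 0.0215) and Lama2 (-0.24, adjusted p = 0.0315) were called lower, and Lamb2 also without control 1 alone (-0.26, adjusted p = 0.0455). Without control 2 and 3 together they were at -0.01, -0.10 and -0.07, in the order Lamb1, Lamb2 and Lama2 (adjusted p = 0.969, 0.758 and 0.841).

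The remaining receptor chains of this group did not pass in the fit of all libraries. Itga9, a receptor chain for tenascin and other matrix proteins, had a log2 fold change of -0.10 (95% interval -0.32 to 0.11), with -0.25 without control 1 and 4 together (adjusted p = 0.00975) and 0.06 without control 2 and 3 together (adjusted p = 0.747). Itgb3, a chain of platelets, endothelium and smooth muscle, had -0.06 (95% interval -0.23 to 0.10). Itga5, the fibronectin receptor chain, followed the control split: it was at 83.5 to 92.1 CPM in mutant libraries, against 112, 56.9, 56.5 and 99.2 CPM in control libraries 1 to 4. Its log2 fold change was 0.12 ± 0.21 (SE), -0.26 without control 2 and 3 together and 0.63 without control 1 and 4 together (edgeR adjusted p = 4.437e-05). The collagen receptor chains Itga10, at most at 7.64 CPM, and Itga11, at most at 6.44 CPM, had values of -0.05 ± 0.14 and 0.17 ± 0.41 (SE).

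Markers of stromal and vascular cells were read beside these members. Of 6 endothelial markers, 3 fell (Pecam1, Cdh5 and Tek), and the sum was 2530 to 2841 CPM in mutant libraries and 3091 to 3954 CPM in control libraries. Pecam1, an adhesion protein of endothelium, had a log2 fold change of -0.48 ± 0.12 (edgeR adjusted p = 0.0369) and passed in 11 of 18 alternative fits. No endothelial marker was called lower without control 2, mutant 1, mutant 2 or mutant 4, or without control 2 and 3 together. Without control 1 and 4 together 5 were called lower. Of 6 fibroblast markers Col3a1, a fibrillar collagen, rose and the rest did not pass. The 6 summed to 2695 to 3226 CPM in mutant libraries and 1910.0 to 2899 CPM in control libraries. No fibroblast marker was called higher without control 2, without control 3, without control 2 and 3 together, or with any 1 mutant library left out. The same held without the filter on low counts and with replicate number as a block. Without control 1 and 4 together 3 were called higher and 1 lower. Of 6 platelet markers Ppbp and Gp9 fell, with a sum of 42.6 to 48.0 CPM in mutant libraries and 49.8 to 66.2 CPM in control libraries. Among 5 tested mesothelial markers only Krt19, also on the pan-epithelial list, rose. Of the 5, 3 had a log2 fold change below 0, and the median was -0.28. The sum of the list, which includes Krt19, was 637.5 to 735 CPM in mutant libraries and 295 to 583 CPM in control libraries. Their part in the values of the mesenchymal and vascular members was not tested.

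Leukocyte subunits showed no call in the fit of all libraries, and control 1 was the highest library for Itgb2 and Itga4. Itgb2, the common beta chain of the leukocyte integrins, was at 83.1, 91.0, 98.5 and 103 CPM in mutant libraries 1 to 4, against 154, 77.8, 69.8 and 79.3 CPM in control libraries 1 to 4. Control 1 was the highest of all libraries, and the other control libraries were lower than every mutant library. The log2 fold change was -0.02 ± 0.23 (SE, edgeR adjusted p = 0.966), and without control 1 it was 0.31 (adjusted p = 0.047). Without control 1 and 4 together it was 0.35 (adjusted p = 0.0103), without control 2 and 3 together -0.31 (adjusted p = 0.562), and its sign also turned in several fits that kept all libraries. Itga4, the alpha chain that binds Vcam1, was at 27.9, 26.5, 36.9 and 29.3 CPM in mutant libraries 1 to 4, against 64.9, 24.0, 20.0 and 30.4 CPM in control libraries 1 to 4. Here too control 1 stood apart, with a log2 fold change of -0.21 ± 0.33 (SE), or 0.28 without control 1 (adjusted p = 0.253). It was 0.46 without control 1 and 4 together (adjusted p = 0.0283), and -0.66 without control 2 and 3 together (adjusted p = 0.275). Itgb7, the chain that pairs with Itga4 and Itgae on lymphocytes, had 28.1 to 32.3 CPM in mutant libraries and 25.6 to 46.4 CPM in control libraries, with control 4 highest (log2 fold change -0.18 ± 0.17, edgeR adjusted p = 0.55), and was called lower without control 2 and 3 together (-0.46, adjusted p = 0.0416).

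The leukocyte alpha subunits with a lettered symbol fall outside the naming rule. Of Itgal, Itgam, Itgax, Itgad, Itgae and the platelet chain Itga2b, 5 were tested and none passed. Of these 5, 1 had a log2 fold change above 0 and 4 below it. The list summed to 311 CPM in control 1, 121 to 155 CPM in the other control libraries and 152 to 166 CPM in mutant libraries. Without control 1 and 4 together 2 of this list were called higher, and without control 2 and 3 together none was called. Itgal, the partner of Itgb2 on lymphocytes, was at 47.3, 52.9, 54.0 and 49.5 CPM in mutant libraries 1 to 4, against 152, 39.1, 39.0 and 59.3 CPM in control libraries 1 to 4. Of 6 pan-leukocyte markers none passed, with a sum of 493 to 555.5 CPM in mutant libraries and 324 to 811 CPM in control libraries. Without control 1 and 4 together, where 40.7% of all genes passed, all 6 were called higher. Without control 2 and 3 together none was called. Ptprc, the common leukocyte antigen, had a log2 fold change of -0.16 ± 0.32 in the fit of all libraries. Of 6 lymphoid markers none passed, with a sum of 41.3 to 59.5 CPM in mutant libraries and 30.1 to 58.8 CPM in control libraries. Of 6 myeloid markers 3 rose (Cd68, Mrc1 and Cd14), with a sum of 5262 to 7716 CPM in mutant libraries and 5411 to 7452 CPM in control libraries. Their part in the leukocyte subunits was not tested.

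Lama1, the laminin alpha chain of the embryo, was the remaining low member. It was at 4.66, 6.22, 8.74 and 5.75 CPM in mutant libraries 1 to 4, against 6.89, 1.65, 1.18 and 7.58 CPM in control libraries 1 to 4. Control 2 and 3 were the low ones. The log2 fold change was 0.53 ± 0.52 (SE, edgeR adjusted p = 0.562), -0.19 without control 2 and 3 together and 2.17 without control 1 and 4 together (adjusted p = 0.000337).

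**Figure D4:**
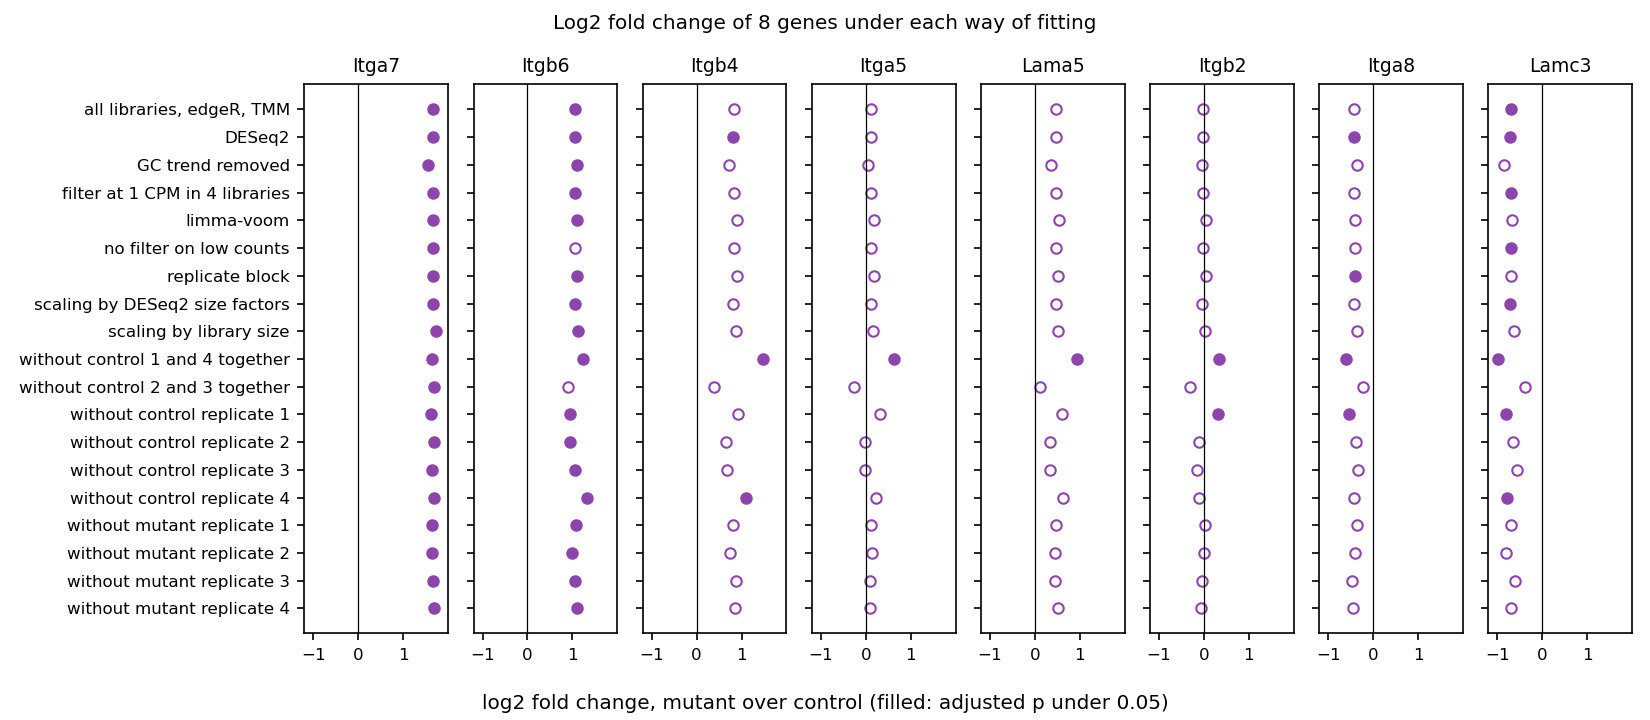
Log2 fold change of 8 genes, mutant over control, in the fit of all libraries and in 18 alternative fits, with filled points where the adjusted p is under 0.05. Itga7 is filled throughout and nearly constant, Itgb6 is open in 2 alternatives, and Itgb4, Itga5, Lama5, Itgb2, Itga8 and Lamc3 shift with the choice of control libraries.

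Around the receptors, the ligands held the largest called change of the pathway lists. Fn1, fibronectin, which binds the pairs of Itgav with Itgb6 and of Itga5 with Itgb1, was at 1043, 1012, 1118 and 827 CPM in mutant libraries 1 to 4, against 649, 397.5, 402 and 588 CPM in control libraries 1 to 4. All mutant libraries lay above all control libraries. Fn1 rose with a log2 fold change of 0.97 ± 0.17 (SE, edgeR adjusted p = 0.0094), and it passed in 18 of 18 alternative fits. Vtn, vitronectin, another ligand of the Itgav receptors, fell (log2 fold change -0.67 ± 0.18, edgeR adjusted p = 0.048), but passed in only 7 of 18 alternative fits. Tnc, tenascin, at 0.99 ± 0.36, and Icam1, a ligand of the Itgb2 integrins, at 0.30 ± 0.08, did not pass (adjusted p = 0.124 and 0.0511). In all, 1 of 21 tested ligands and latent TGF-beta genes rose and 1 fell, and their median log2 fold change was 0.03. Without control 1 and 4 together, where 40.7% of all genes passed, 10 of the list were higher and 5 lower. Without control 2 and 3 together 1 was higher and none lower.

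Of 24 cytoplasmic adaptors, 1 rose and 2 fell, with a median of -0.004. Fermt1, the epithelial kindlin that activates integrins from the cytoplasmic side, rose at a low level, with 5.38 to 9.65 CPM in mutant libraries and 2.88 to 5.51 CPM in control libraries (log2 fold change 0.91 ± 0.24, edgeR adjusted p = 0.0458). Its groups overlapped slightly. Tln2, a talin, fell (log2 fold change -0.38 ± 0.10, edgeR adjusted p = 0.0429), and Tns3, a tensin, fell (log2 fold change -0.28 ± 0.07, edgeR adjusted p = 0.047). They passed in 11, 8 and 7 of 18 alternative fits, in the order Fermt1, Tln2 and Tns3. Of the 24 adaptors, 10 were higher and 7 lower without control 1 and 4 together, where 40.7% of all genes passed. None of them was called without control 2 and 3 together.

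Of 6 hemidesmosome and laminin receptor partners none passed, and the median was -0.0017. Plec, the plectin that links Itgb4 to keratin, showed the control split again, at 407, 443, 490.0 and 367.5 CPM in mutant libraries 1 to 4, against 484, 146, 163 and 390.5 CPM in control libraries 1 to 4. Its log2 fold change was 1.46 without control 1 and 4 together (adjusted p = 2.02e-05) and -0.03 without control 2 and 3 together (adjusted p = 0.931). Of 17 other basement membrane components none rose and Smoc2, a secreted calcium-binding protein, fell (log2 fold change -0.51 ± 0.12, edgeR adjusted p = 0.0301, passing in 11 of 18 alternative fits), with a median of 0.14 over the list. Col4a1, the main type IV collagen chain, was at 1502, 1508, 1558 and 1216 CPM in mutant libraries 1 to 4, against 1390.0, 644, 666.5 and 1231 CPM in control libraries 1 to 4. Control 2 and 3 were again the low ones, and Col4a1 did not pass (log2 fold change 0.56 ± 0.25, edgeR adjusted p = 0.198). It was at 1.14 without control 1 and 4 together (adjusted p = 2.337e-05) and at 0.14 without control 2 and 3 together (adjusted p = 0.576). Of the 17 components, 10 were higher and 2 lower without control 1 and 4 together, where 40.7% of all genes passed. None of them was called without control 2 and 3 together.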

How the data were processed

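RNA was sequenced from 8 libraries, 4 mutant and 4 control. Read pairs were counted per gene by the authors, per the file headers, using featureCounts 1.6.2 and the GENCODE M25 annotation of GRCm38; strand was ignored, and pairs that mapped to several places or touched several genes were dropped. The deposited table holds raw counts per gene and each gene's length. Per the submitters' processing notes, STAR, Bowtie2 and Cufflinks were also used, with no roles given. Of the kits named in the labels, one keeps strand and the other does not, and which was used is not given. Each library also carries a number of its own in its description, with no meaning given. As no label states that the libraries came from separate animals, the p-values reflect only library-to-library spread, which may be technical. No pair of libraries of a group agreed within sampling noise (chi-square per gene 4.72 to 45.3).

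Symbols came from GENCODE M21 of the same build, which matched 99.5% of 55401 identifiers. After filterByExpr (at least 10 counts, total of at least 15) and TMM scaling, the groups were compared in R 4.3.3 with the robust quasi-likelihood fit of edgeR 4.0.16, with no term but group. P-values were Benjamini-Hochberg adjusted over 16964 genes with a threshold of 0.05. Standard errors and 95% intervals were derived from the F statistic. CPM and TPM were computed here from the counts, and the floor of 3 counts covers counting error only. The fit was tested on simulated data. Alternatives were DESeq2 1.42.0, limma-voom (limma 3.58.1), other scalings and filters, a replicate block, libraries left out, and a GC correction. All members may be named, with Cdh1, Epcam, Pecam1, Ptprc, called list genes, and up to 4 list genes of lowest adjusted p. Other genes (Plec, Npnt, Col4a1, Mettl7b, Hsd11b1, G0s2, Rtraf, the Schwann cell genes) were chosen after their values were seen. Values of 1 member, which is included in all counts, and of a few list genes are not reported here. Members and lists were chosen with earlier results of these data known.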

Additional observations from a re-analysis of the deposited data

Results flagged for a closer look

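Over the 33 members and 10 other genes named in the text, 86 groups of 4 libraries were examined for a library far from the other 3, and chance marks about 1 in 20 such groups. There were 2 marked groups. Itgb2 in control 1 was at 154 CPM, above the other control libraries at 69.8 to 79.3 CPM and above every mutant library. Itgb3 in mutant 4 was at 36.7 CPM, below the other mutant libraries at 42.0 to 42.7 CPM and below every control library.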

How the results depend on the processing

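Itga7 passed the threshold in 18 of 18 alternative fits, and over the 33 members and 18 alternatives 508 of 594 pairs kept both their direction and their side of the threshold, 44 turned their sign, 32 gained a call (3 of them among the 44) and 13 lost one. Most of the shifts came from the choice of control libraries. Leaving out control 1 and 4 together gave 3750 genes higher and 3338 lower, and 10 members higher and 10 lower, while leaving out control 2 and 3 together gave 628 and 223 genes, and 1 member higher and 1 lower (Itgb7 in place of Lamc3). Leaving out 1 library at a time gave 515 to 1517 genes higher and 146 to 1117 lower, and 2 to 4 members higher and 0 to 6 lower. By tool, DESeq2 called 1336 genes higher and 939 lower, with 4 members higher and 2 lower (Itgb4 and Itga8 among the added calls). No member was called lower, with Lamc3 short of the threshold, under limma-voom (0 members), library size scaling (0 members) and removal of the GC trend (0 members), a correction chosen after seeing the data. No scaling moved the median of all genes by over 0.1 on the log2 scale. Except for the fits with fewer libraries, the cause of these shifts was not tested.

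Sign changes concerned members with a small or split value. Without control 2 and 3 together, the log2 fold change was 0.0279 for Itga10, -0.2867 for Itga11, -0.1486 for Itga2, -0.2598 for Itga5, 0.056 for Itga9, -0.1884 for Lama1 and 0.0166 for Lamc1. Without control 1 and 4 together it was 0.455 for Itga4, -0.0551 for Itgav, 0.3457 for Itgb2, 0.1808 for Itgb7, -0.0189 for Lama3, -0.0202 for Cdh1 and 0.5166 for Ptprc. Library size scaling gave 0.0104 for Itga10, 0.0259 for Itgb2, 0.0541 for Lamc1 and 0.0081 for Nid2. Itgb2 was at 0.0512 under limma-voom, Lama3 at -0.0014 under DESeq2 and also at -0.0014 under scaling by DESeq2 size factors, and Lamc1 at 0.0003 without the filter. With 1 library left out at a time, the log2 fold change ran from -0.1176 to 0.0309 for Itga10, from -0.1415 to 0.6057 for Itga11, from -0.0785 to 0.1407 for Itga2, from -0.4073 to 0.2804 for Itga4, from -0.0238 to 0.3143 for Itga5, from -0.1465 to 0.3135 for Itgb2 and from -0.2928 to 0.0062 for Itgb7. It ran from -0.0678 to 0.0693 for Lama3, from -0.0559 to 0.0297 for Lamc1, from -0.1138 to 0.0406 for Nid2, from -0.0002 to 0.1292 for Cdh1 and from -0.3479 to 0.3187 for Ptprc.

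With the replicate number as a block, 865 genes were higher and 371 lower, and 2 members were higher and 1 lower, with Itga8 (-0.4031) in place of Lamc3, and Itgb2 at 0.0556. The deviations of same-numbered libraries from their group means correlated at 0.007, 0.129, -0.123 and 0.134. Of 4 mutant libraries 1 correlated best with its own number. No pairing by number was seen, and so few libraries with such a split among the controls cannot exclude one. The lowest count of a member in a library was 20.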
